A study of Homo sapiens with 12 samples.

Results

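Autophagy delivers cellular material to the lysosome for breakdown, and the genes described here cover that route from start to end. Initiation kinases and membrane-supply proteins start the autophagosome, a conjugation system attaches ATG8 family proteins to its membrane, and receptors load cargo. Lysosomal hydrolases then digest what arrives, in an interior acidified by a proton pump, the V-ATPase. Transcription factors of the MiT/TFE family (TFEB, TFE3 and MITF) bind short E-box motifs in many of these genes, and the kinase complex mTORC1, which lies downstream of PI3K, keeps them out of the nucleus in fed cells.

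The members were a fixed list of 53 gene symbols, and all 53 were found among the 23228 genes counted. They comprised 24 autophagy genes, 18 lysosomal genes, 8 proton pump genes and the 3 MiT/TFE factors. Expression was measured by polyA RNA-seq in C4.2B, an established human cell line of castration-resistant prostate cancer, in 12 libraries of 4 arms with 3 libraries each (A, B and C). By the study's methods, cells were grown in ordinary serum. Cells of every arm were switched to 10% charcoal-stripped serum, which is low in androgens, at the start of the 24 h of treatment. The DMSO arm received vehicle, the GDC arm 0.5 µM GDC-0941 (an inhibitor of all class I PI3K enzymes), the GSK arm 5 µM GSK126 (an inhibitor of EZH2), and the COMBO arm both agents at those doses. The GSK and COMBO arms had also been given GSK126 for 6 days beforehand, and EZH2 is the enzyme that places a repressive methyl mark on histones. GDC-0941 was given for 24 h only, so agent and length of exposure cannot be told apart between the GDC and GSK arms. All libraries came from 1 cell line, and the study's methods describe replicate plates seeded after the pretreatment. By that description, p-values measure the spread between these libraries, which may be technical, and not the spread between separate experiments.

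Each library held between 8785218 and 44437751 counts in genes. The share of reads falling in genes averaged 75.8% ± 0.456 (SD, n = 3 here and below) with DMSO, 74.1% ± 0.214 with GDC, 70.7% ± 0.494 with GSK and 67.6% ± 1.17 with COMBO, so it moved with the arms, and its part in the results below was not tested. The 9 prostate luminal markers examined, KLK3 among them, were all above 1 CPM in every arm. Their sum moved with the arms without overlap, from 3614 to 3761 CPM with DMSO, 4468 to 4849 with GSK, 5024 to 5140 with GDC and 5601 to 5996 with COMBO, and its part in the results was not tested. KLK3 averaged 597 CPM with DMSO and 1843 with COMBO, and HOXB13 484 and 304. Immune markers summed to at most 1.15 CPM and endothelial markers to between 2.74 and 7.07 CPM. Fibroblast markers summed to between 11.7 CPM in DMSO and 50.3 CPM in COMBO. Of these, COL1A1 averaged 10.5 CPM with DMSO and 35.8 with COMBO, PDGFRB 1.68 and 2.25 (3.81 with GDC), and COL3A1 0.350 and 1.70. DCN averaged 0 CPM with DMSO and 0.210 with COMBO, LUM 0 and 0.116, and COL1A2 0 in both. Levels below are CPM (counts scaled to a common library size, with a TMM correction for composition) and are not divided by gene length, so they are compared between arms and never between genes. A gene is said to have risen or fallen where edgeR's quasi-likelihood test gave an adjusted p under 0.05 over all 14189 genes tested, and ± after a log2 fold change is its standard error.

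To determine how the route responded to each agent, every arm was first compared with DMSO. In GDC, 27 of the 53 genes rose and 4 fell, where 20.0% of all tested genes rose and 20.0% fell. Their median log2 fold change was 0.14, against 0.016 over all genes. The GSK arm had 41 members that rose and 6 that fell, where 40.0% of all genes rose and 35.7% fell, and the members' median was 0.45 against 0.058. In COMBO, 40 rose and 6 fell, with 43.3% and 39.2% of all genes, and the median was 0.41 against 0.054. These 3 comparisons share the DMSO libraries and are not independent of each other. The shares of all genes also stand beside the counts by class and role against DMSO given below. A change in the RNA of a gene per cell cannot be told apart here from a change in which cells were present at harvest. Calls kept under each of 19 alternative analyses (a minimum fold change not among them) were 23 of 31 for GDC, 37 of 47 for GSK and 39 of 46 for COMBO.

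Most lysosomal and autophagy genes rose in GSK and COMBO, as did 7 of 8 proton pump genes in GSK, while the number of lysosomal genes that rose in GDC depended on single libraries. Among the 18 lysosomal genes, 13 rose and 1 fell in GDC, 14 rose and 1 fell in GSK, and 15 rose and 1 fell in COMBO, with median log2 fold changes of 0.16, 0.58 and 0.60. The GDC count of 13 became 7 without DMSO A, DMSO C or GDC B, and 8 without GDC A or GDC C or with no filter on low counts. Among the 24 autophagy genes, 14 rose and 3 fell in GDC, 18 rose and 5 fell in GSK, and 19 rose and 4 fell in COMBO, with medians of 0.24, 0.39 and 0.53. None of the 8 proton pump genes passed the test in GDC by edgeR, where 3 had an unadjusted p under 0.05 (1 higher and 2 lower) and the median was 0.0099, and 2 were lower by DESeq2. In GSK 7 of them rose, with a median of 0.35, and in COMBO 4 rose and 1 fell, with a median of 0.11. With DESeq2 size factors in place of TMM, 23 members rose and 7 fell in GDC, and in COMBO 2 pump genes rose and 1 fell. Scaling by library totals alone moved the median of all genes to 0.21 in GSK and 0.26 in COMBO, and 7 pump genes then rose and 0 fell in COMBO.

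**Figure D1:**
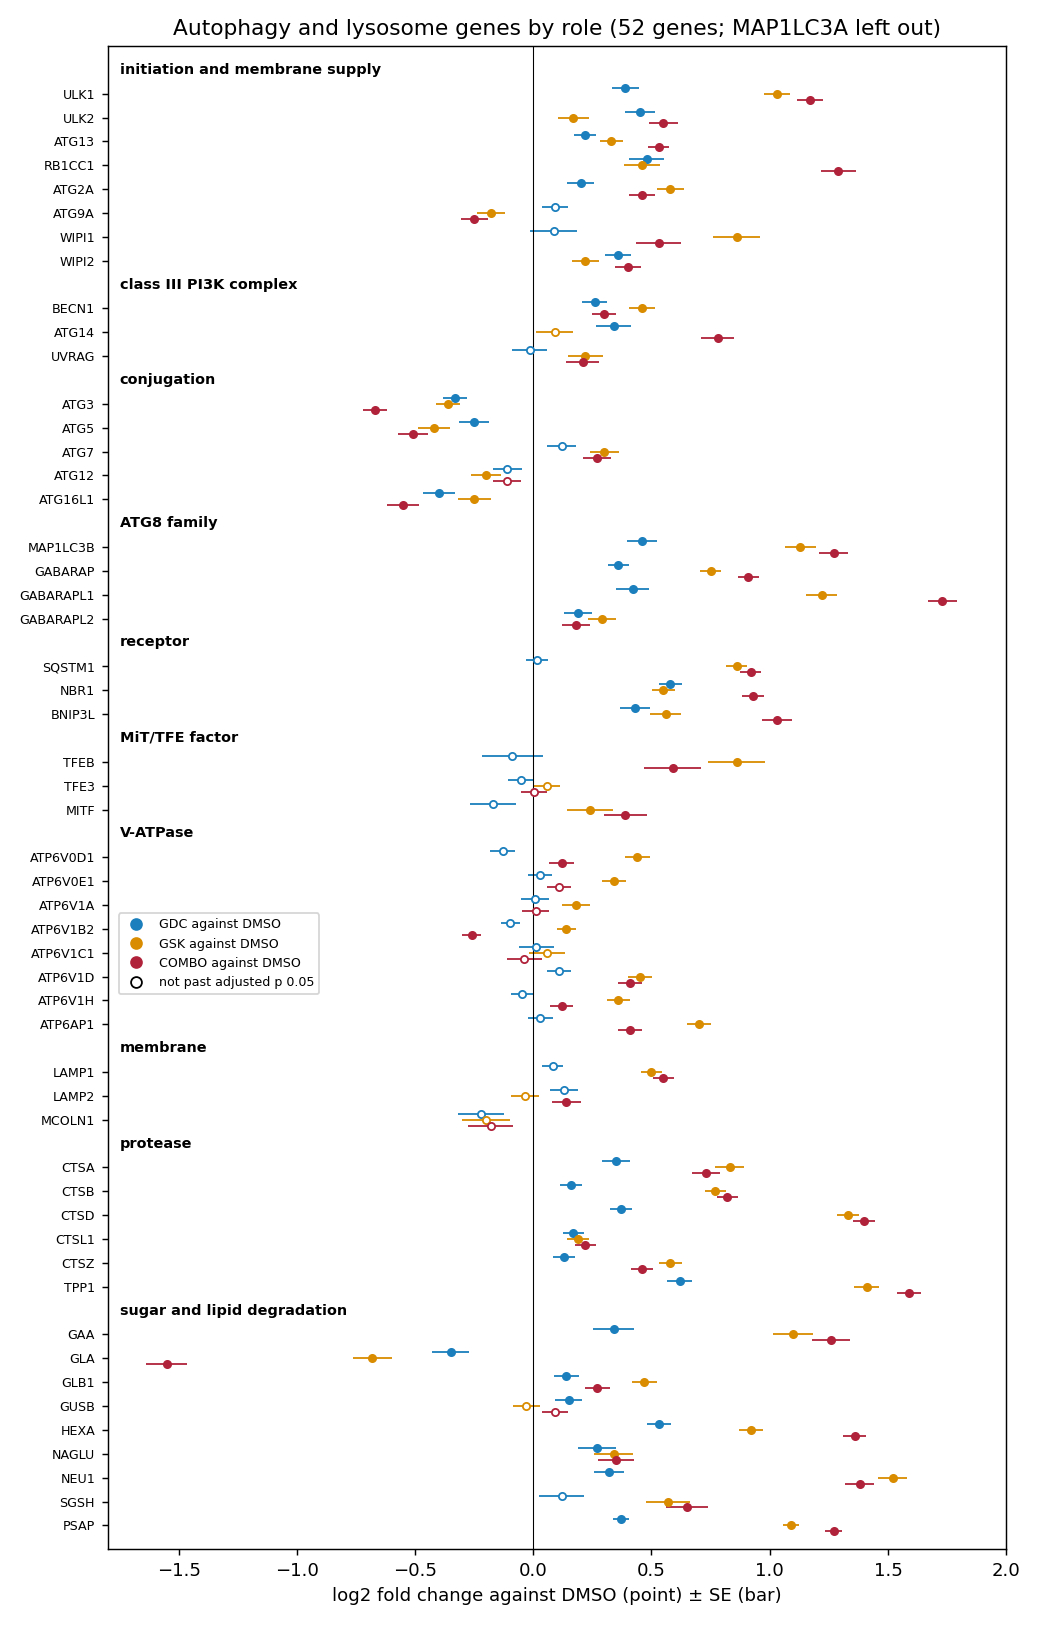
Each row is 1 of 52 genes, grouped by role, and the horizontal axis is the log2 fold change against DMSO (point) with its standard error (bar) in GDC (blue), GSK (orange) and COMBO (red). Open points did not pass an adjusted p of 0.05 (edgeR, n = 3 libraries per arm). MAP1LC3A, at 2.04, 3.79 and 4.32, is left out for its scale. Hydrolases and ATG8 family genes lie mostly to the right of 0, GLA, MCOLN1 and 4 of the 5 conjugation genes lie to the left in all 3 colours (MCOLN1 with open points), and the V-ATPase genes lie close to 0 in blue.

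All 6 lysosomal proteases examined rose in each of the 3 arms, 3 of them in GDC with calls that some alternatives lost. CTSD encodes cathepsin D, an aspartic protease of the lysosome. Its level was 170, 195 and 183 CPM with DMSO, 232, 234 and 242 with GDC, 465, 459 and 457 with GSK, and 463, 489 and 496 with COMBO. The GDC libraries were all above DMSO, and the GSK and COMBO libraries were well above both but overlapped each other. The rise was 0.37 ± 0.047 on the log2 scale for GDC (adjusted p = 5.29e-06), 1.33 ± 0.047 for GSK (adjusted p = 3.94e-15) and 1.40 ± 0.047 for COMBO (adjusted p = 3.73e-16). COMBO differed from GSK by 0.067 ± 0.046 (adjusted p = 0.243), though the difference passed the test without COMBO A, at 0.13 (adjusted p = 0.0491).

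TPP1, a peptidase that trims tripeptides from protein ends, stood at 72.9, 69.6 and 67.3 CPM with DMSO and at 106, 100 and 115 with GDC. It reached 187, 185 and 184 in GSK and 208, 207 and 215 in COMBO, so that the 4 arms did not overlap. The log2 fold changes were 0.62 ± 0.053 for GDC (adjusted p = 3.52e-08), 1.41 ± 0.052 for GSK (adjusted p = 7.03e-15) and 1.59 ± 0.051 for COMBO (adjusted p = 2.01e-16), and TPP1 was also 0.18 ± 0.049 higher in COMBO than in GSK (adjusted p = 0.00569). CTSA, the carboxypeptidase that protects NEU1 and GLB1 in a complex, measured 34.8, 35.0 and 32.2 CPM with DMSO, 44.9, 41.7 and 42.8 with GDC, 59.4, 62.8 and 58.1 with GSK, and 55.3, 54.2 and 59.2 with COMBO. Its GDC libraries lay between DMSO and the other arms, and it rose by 0.35, 0.83 and 0.73 in GDC, GSK and COMBO. The remaining proteases were CTSB, CTSL1 (now named CTSL) and CTSZ. They rose by 0.16, 0.17 and 0.13 in GDC, calls that were lost in 6, 5 and 15 of the 19 alternatives, and by 0.77, 0.19 and 0.58 in GSK. Exons of CTSA overlap those of NEURL2 and PLTP, and whether counting used strand is not given in the sources used here.

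Enzymes that degrade sugars and lipids rose in large part as well, 7 of 9 in each arm, while GLA fell in all 3. NEU1, a sialidase on chromosome 6 (31857659 to 31862905, hg38, minus strand), was at 27.2, 28.8 and 31.7 CPM with DMSO and at 37.6, 36.9 and 36.8 with GDC. GSK libraries held 82.3, 90.1 and 83.3 CPM and COMBO libraries 77.9, 74.1 and 80.3. NEU1 thus stood above DMSO in every treated library and was highest in GSK. It rose by 0.32 ± 0.065 for GDC (adjusted p = 6.05e-04), 1.52 ± 0.062 for GSK (adjusted p = 2.40e-14) and 1.38 ± 0.060 for COMBO (adjusted p = 2.13e-14). COMBO against GSK gave -0.14 (adjusted p = 0.0455), a call lost in 17 of 19 alternatives, with 10 of the 12 libraries left out in turn among them and a difference of -0.072 without GSK B.

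HEXA, a subunit of the hexosaminidase that cleaves gangliosides, was at 49.6, 55.3 and 54.9 CPM with DMSO, 76.5, 76.9 and 78.4 with GDC, 99.0, 102 and 103 with GSK, and 138, 135 and 140 with COMBO. The arms formed 4 steps without overlap. It rose by 0.53 ± 0.051 for GDC (adjusted p = 1.74e-07), 0.92 ± 0.051 for GSK (adjusted p = 2.26e-12) and 1.36 ± 0.049 for COMBO (adjusted p = 1.08e-15). PSAP, the precursor of the saposins that present lipids to these enzymes, rose by 0.37, 1.09 and 1.27, and GAA, the glycogen-degrading glucosidase, by 0.34, 1.10 and 1.26 in GDC, GSK and COMBO. The smallest rises among these enzymes in GDC belonged to GLB1 (0.14) and GUSB (0.15), which lost their calls in 17 and 15 of 19 alternatives. GENCODE lists 18 pseudogenes named for GUSB, so reads could be split between copies.

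GLA encodes alpha-galactosidase A, which removes terminal galactose from glycolipids (chromosome X, 101393273 to 101408012, hg38, minus strand). It was the 1 lysosomal gene that fell, and it did so in all 3 arms. DMSO libraries held 24.2, 26.3 and 26.3 CPM, GDC libraries 20.6, 21.9 and 17.9, GSK libraries 16.3, 16.4 and 15.6, and COMBO libraries 8.30, 8.88 and 9.18. The level stepped down from arm to arm without overlap. The log2 fold change was -0.35 ± 0.079 for GDC (adjusted p = 0.00128), -0.68 ± 0.084 for GSK (adjusted p = 4.34e-07) and -1.55 ± 0.086 for COMBO (adjusted p = 1.01e-12), which left COMBO at 34.1% of the DMSO level. GLA shares exonic sequence with RPL36A, a ribosomal protein gene, whose log2 fold changes were -0.35, -0.22 and -0.22 in GDC, GSK and COMBO (adjusted p = 0.153, 0.320 and 0.255).

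The lysosomal membrane genes moved less. LAMP1, an abundant glycoprotein of that membrane, measured 162, 173 and 166 CPM with DMSO, 177, 179 and 175 with GDC, 239, 237 and 232 with GSK, and 236, 258 and 242 with COMBO. It rose by 0.50 ± 0.045 in GSK (adjusted p = 4.17e-09) and 0.55 ± 0.044 for COMBO (adjusted p = 4.15e-10), and its GDC value was 0.082 ± 0.045 (adjusted p = 0.157). LAMP2, which takes part in fusion with autophagosomes, was at 0.14 for COMBO (adjusted p = 0.0352), a call lost in 11 of 19 alternatives. MCOLN1, the calcium channel of the lysosome and a known MiT/TFE target, did not rise in any arm. Its libraries held 14.1, 16.3 and 16.1 CPM with DMSO, 13.8, 13.6 and 13.1 with GDC, 15.7, 12.6 and 13.2 with GSK, and 15.6, 12.9 and 13.3 with COMBO, and the GSK and COMBO libraries overlapped DMSO. The log2 fold changes were -0.22, -0.20 and -0.18 (adjusted p = 0.0840, 0.0882 and 0.0896). These values lay close to the threshold, and MCOLN1 was called lower in 8 of 19 alternatives for GDC, 8 for GSK and 4 for COMBO. Among these, DESeq2 size factors (-0.26, -0.23 and -0.21), no filter (-0.29, -0.28 and -0.23) and the fit without DMSO A (-0.30, -0.29 and -0.24) gave the call in all 3 arms. Its exons overlap those of PNPLA6, whose own log2 fold changes were 0.22, 0.16 and 0.22.

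**Figure D2:**
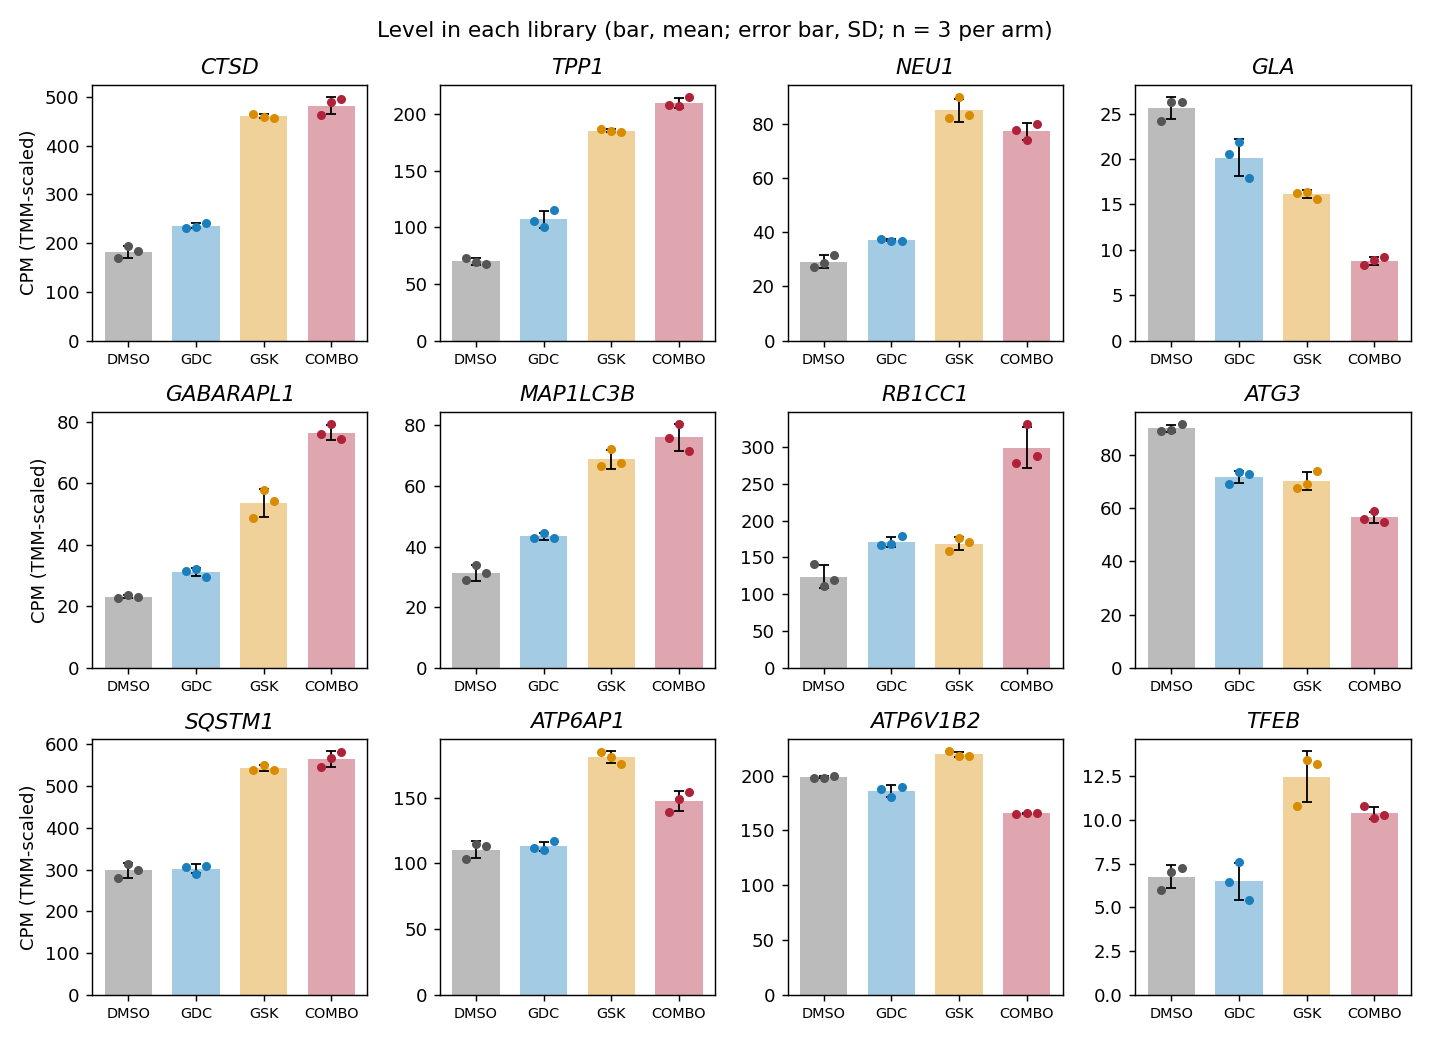
Bars give the mean CPM of 12 genes in each arm, error bars the SD and points the 3 libraries, with a vertical axis that starts at 0 in each panel. CTSD and SQSTM1 sit at similar heights in GSK and COMBO, GABARAPL1 and RB1CC1 are highest in COMBO, ATP6V1B2 is lowest in COMBO, and GLA falls to between 8.30 and 9.18 CPM in COMBO.

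Because MiT/TFE factors bind the E-box TCACGTG, promoters of the members were searched for these letters on both strands (CACGTGA on the reverse). RefSeq promoters (GRCh38.p14) of 300 bases, from 250 before to 50 after the start, were matched for 38 of the 53 genes. The motif was present in 9 of the 38 (23.7%), and in 4.49% of the 27305 gene symbols with a promoter. The 9 were 6 of 12 lysosomal genes (LAMP1, MCOLN1, CTSA, CTSD, GAA and NEU1), 1 of 3 proton pump genes (ATP6V0D1), 2 of 20 autophagy genes (ATG14 and ATG3) and 0 of 3 MiT/TFE genes. The letters GTAAACA, the core bound by forkhead factors, occurred in 1 of the 38 (CTSL1) and in 4.19% of symbols (reverse complement TGTTTAC).

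Stretches around the E-box of 5 of these genes are shown, because they hold the same letters and their RNAs did not move alike. The promoters of CTSA, MCOLN1 and ATG3 hold 2 such sites each, and those of CTSD and NEU1 hold 1. For MCOLN1 and ATG3 only 1 of the 2 lies in the stretch shown. Capitals mark the motif as read on either strand, with overlapping matches of the 2 strands joined, and each line runs 5′ to 3′ on the strand of the gene. They lie at chr11:1763950-1763992 (CTSD, minus), chr6:31862924-31862966 (NEU1, minus), chr20:45891274-45891316 (CTSA, plus), chr19:7522564-7522606 (MCOLN1, plus) and chr3:112561957-112561999 (ATG3, minus).
CTSD: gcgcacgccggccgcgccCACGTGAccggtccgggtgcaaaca
NEU1: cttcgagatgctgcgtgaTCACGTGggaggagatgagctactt
CTSA: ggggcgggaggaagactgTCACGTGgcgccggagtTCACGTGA
MCOLN1: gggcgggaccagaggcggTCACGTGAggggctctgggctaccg
ATG3: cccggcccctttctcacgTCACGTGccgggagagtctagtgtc
CTSD, NEU1 and CTSA rose in all 3 treated arms, MCOLN1 passed the main test in none, and ATG3 fell in all 3. The genes with the motif that are not shown all rose in COMBO. They were LAMP1 (0.55), GAA (1.26), ATG14 (0.78) and ATP6V0D1 (0.12, a call that most alternatives lost). Of these, GAA and ATG14 rose in GDC, and all but ATG14 rose in GSK. A match of letters is a description and does not show that a factor bound there.

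None of the 3 MiT/TFE genes passed the test in GDC, by edgeR, by DESeq2 or at an unadjusted p under 0.05 (0 of 3 each). TFEB was at 6.00, 7.02 and 7.24 CPM with DMSO, 6.45, 7.58 and 5.43 with GDC, 10.8, 13.4 and 13.2 with GSK, and 10.8, 10.1 and 10.3 with COMBO. Its GDC and DMSO libraries overlapped, and every library given GSK126 was above them. TFEB rose by 0.86 ± 0.12 for GSK (adjusted p = 2.78e-06) and 0.59 ± 0.12 for COMBO (adjusted p = 1.22e-04), with -0.088 ± 0.13 for GDC (adjusted p = 0.625). MITF, at 8.01 to 12.9 CPM over the 12 libraries, rose by 0.39 ± 0.090 for COMBO (adjusted p = 4.79e-04). Its rise in GSK (0.24 ± 0.098, adjusted p = 0.0320) was lost in 14 of 19 alternatives, 10 of them with 1 library left out, at 0.15 (without GSK B) to 0.25 (without DMSO C). TFE3 lay between 66.1 and 74.9 CPM in all 12 libraries, and its log2 fold changes of -0.052, 0.059 and 0.0027 did not pass the test, although with library totals alone it was at 0.21 in both GSK and COMBO (adjusted p = 0.00175 and 0.00126).

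In the proton pump, 7 of 8 genes rose in GSK and 0 in GDC. ATP6AP1, an accessory subunit of the V-ATPase on chromosome X (154428633 to 154436516, hg38), measured 103, 115 and 113 CPM with DMSO, 112, 110 and 117 with GDC, 185, 181 and 176 with GSK, and 139, 149 and 154 with COMBO. The GDC and DMSO libraries overlapped, GSK was the highest arm and COMBO lay between. It rose by 0.70 ± 0.051 for GSK (adjusted p = 1.61e-10) and by 0.41 ± 0.051 for COMBO (adjusted p = 2.97e-07), and COMBO against GSK gave a log2 fold change of -0.29 ± 0.051 (adjusted p = 8.19e-05). ATP6V1D, a subunit of the rotor's stalk, was at 95.7, 84.2 and 90.0 CPM with DMSO, 94.3, 98.6 and 97.0 with GDC, 121, 123 and 124 with GSK, and 119, 123 and 116 with COMBO. It rose by 0.45 in GSK and 0.41 in COMBO, 2 arms that overlapped each other.

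ATP6V1B2, a subunit of the head that splits ATP, was the pump gene that fell. Its level was 198, 198 and 200 CPM with DMSO, 188, 180 and 190 with GDC, 222, 218 and 218 with GSK, and 165, 166 and 166 with COMBO, so that no 2 arms overlapped. The log2 fold change was 0.14 ± 0.040 for GSK (adjusted p = 0.00345), -0.097 ± 0.040 for GDC (adjusted p = 0.0614) and -0.26 ± 0.040 for COMBO (adjusted p = 5.75e-06). The GSK call was lost without a filter on low counts (0.062, adjusted p = 0.368) and without DMSO A (0.094), GSK A (0.094) or GSK B (0.11). The GDC value passed the test in 13 of 19 alternatives, 9 of them with 1 library left out, at -0.11 to -0.15. With library totals alone the COMBO value was -0.053 (adjusted p = 0.220). The other calls of the class in COMBO were ATP6V0D1 and ATP6V1H, each at 0.12, and these were lost in 14 and 15 of 19 alternatives.

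Set against GSK, the pump was the class that was lower in COMBO. In that comparison 14 of the 53 genes rose and 14 fell, where 19.0% of all genes rose and 26.9% fell, and the members' median was 0.018 against -0.014. With library totals alone the split was 20 and 10. Of the pump genes 6 of 8 fell by edgeR, with a median of -0.24, and 0 rose by edgeR, by DESeq2 or at an unadjusted p under 0.05. ATP6V1B2 had the largest fall, at -0.40 ± 0.041 (adjusted p = 1.12e-07), followed by ATP6V0D1 at -0.32 and ATP6AP1 at -0.29, and under library totals 5 of 8 fell. Lysosomal genes rose 4 times and fell 4 times, and autophagy genes rose in 10 cases and fell in 4. The count of members that fell was 8 without COMBO A.

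**Figure D3:**
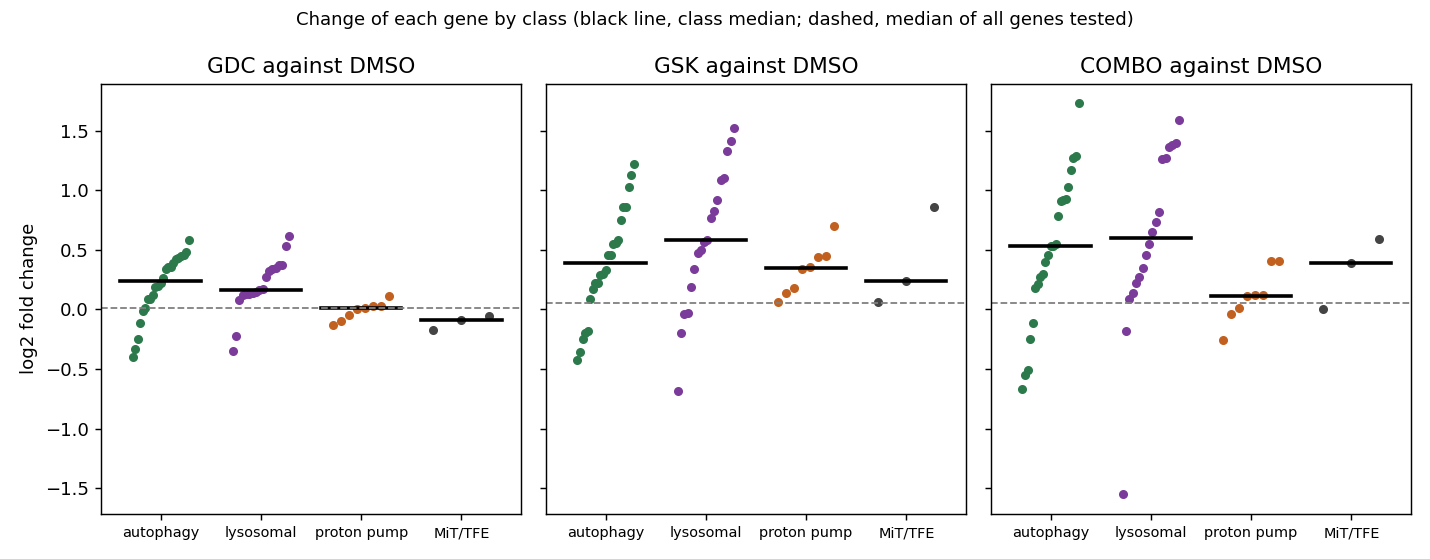
Points are the log2 fold changes against DMSO of the members of each class in GDC, GSK and COMBO, black lines their medians and dashed lines the medians of all genes tested. MAP1LC3A, at 2.04, 3.79 and 4.32, lies off the plot but is counted in the autophagy medians of 0.24, 0.39 and 0.53. The proton pump medians are 0.0099, 0.35 and 0.11.

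Class levels were also summarised in each library as the mean log2 CPM over the members. The lysosomal mean was higher than in DMSO by 0.21 in GDC, 0.60 in GSK and 0.61 in COMBO, and the autophagy mean by 0.23, 0.47 and 0.61. The autophagy mean includes MAP1LC3A, which had 0, 0 and 4 counts with DMSO. Its log2 fold changes of 2.04, 3.79 and 4.32 were the highest of the class in GDC, GSK and COMBO. MAP1LC3A thus raised the autophagy mean in each arm and lowered the 2 gaps given below, by an amount that was not computed. The proton pump mean differed from DMSO by -0.011, 0.34 and 0.11. The gap between lysosomal and autophagy means changed by -0.022 in GDC, 0.13 in GSK and -5.7e-04 in COMBO, where its SD within an arm was 0.026 to 0.050 (n = 3). With the median of the members in place of the mean this gap changed by 0.27, 0.19 and 0.44. With means and a prior count of 0.25, which gives MAP1LC3A more weight, it changed by -0.091, 0.036 and -0.093. The direction of the gap in GDC and COMBO thus rests on the summary chosen, and its size also on the weight given to MAP1LC3A. The gap between proton pump and autophagy means, examined after the values had been seen, changed by -0.24, -0.14 and -0.50, with SDs of 0.019 to 0.038. MAP1LC3A made this gap more negative in each arm. Median log2 fold changes were 0.0099, 0.35 and 0.11 for pump genes and 0.24, 0.39 and 0.53 for autophagy genes, so the 2 classes lay close together in GSK.

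Most autophagy initiation genes rose in all arms. ULK1, the kinase that starts autophagosome formation, was at 41.6, 46.0 and 45.1 CPM with DMSO, 59.6, 57.2 and 57.9 with GDC, 91.1, 95.4 and 87.1 with GSK, and 104, 96.1 and 102 with COMBO. Each arm lay above the one before it. It rose by 0.39 ± 0.056 for GDC (adjusted p = 2.24e-05), 1.03 ± 0.055 for GSK (adjusted p = 1.45e-12) and 1.17 ± 0.054 for COMBO (adjusted p = 4.66e-14). The difference between COMBO and GSK (0.14, adjusted p = 0.0351) was lost in 5 of 19 alternatives, namely with the replicate block (0.14, adjusted p = 0.0512), with DESeq2 (0.14, adjusted p = 0.0576) and without GSK C (0.10), COMBO A (0.15) or COMBO C (0.13). Its partner RB1CC1, also named FIP200, was at 141, 111 and 119 CPM with DMSO, 167, 168 and 179 with GDC, 159, 176 and 171 with GSK, and 279, 331 and 288 with COMBO. The single-agent arms overlapped each other, and COMBO stood apart. It rose by 0.48 ± 0.074 for GDC (adjusted p = 4.32e-05), 0.46 ± 0.075 for GSK (adjusted p = 1.62e-05) and 1.29 ± 0.073 for COMBO (adjusted p = 1.78e-12).

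Of the 8 genes of initiation and membrane supply, 6 rose in GDC, and 7 rose and 1 fell in both GSK and COMBO. The gene that fell was ATG9A, the membrane protein that seeds the autophagosome, at -0.18 and -0.25, and both calls were lost with library totals alone. ULK2 rose by 0.45 in GDC and 0.55 in COMBO, and its GSK call (0.17) was lost in 13 of 19 alternatives. In the class III PI3K complex, which makes the lipid signal on the growing membrane, ATG14 was at 22.0, 19.7 and 19.3 CPM with DMSO, 24.2, 26.2 and 25.5 with GDC, 22.9, 20.1 and 21.3 with GSK, and 32.9, 35.9 and 34.1 with COMBO. GSK libraries overlapped DMSO, while GDC and COMBO were both above. It rose by 0.34 ± 0.073 for GDC (adjusted p = 9.39e-04) and 0.78 ± 0.069 for COMBO (adjusted p = 1.95e-09), with 0.090 ± 0.078 for GSK (adjusted p = 0.300), where library totals alone gave 0.24 (adjusted p = 0.00700). BECN1, the scaffold of the complex, rose by 0.26, 0.46 and 0.30 in GDC, GSK and COMBO.

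Among the 5 conjugation genes more fell than rose. Those that fell were 3 in GDC, 4 in GSK and 3 in COMBO, where 20.0%, 35.7% and 39.2% of all genes fell. In GSK and in COMBO 1 rose, where 40.0% and 43.3% of all genes rose. ATG3, the enzyme that transfers ATG8 proteins to lipid (chromosome 3, 112532510 to 112562046, hg38, minus strand), was at 89.0, 89.6 and 91.6 CPM with DMSO, 69.3, 73.5 and 72.8 with GDC, 67.8, 69.0 and 74.2 with GSK, and 56.0, 58.8 and 55.0 with COMBO. GDC and GSK overlapped each other between DMSO and COMBO. Its log2 fold changes were -0.33 ± 0.050 (adjusted p = 3.76e-05), -0.36 ± 0.051 (adjusted p = 2.94e-06) and -0.67 ± 0.050 (adjusted p = 1.40e-10). Exons of ATG3 overlap those of SLC35A5.

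ATG5, part of the complex that directs this transfer, was at 71.9, 62.4 and 71.8 CPM with DMSO, 56.0, 61.5 and 55.3 with GDC, 53.5, 49.9 and 50.7 with GSK, and 49.2, 50.4 and 44.9 with COMBO. It fell in each arm, with log2 fold changes of -0.25, -0.42 and -0.51. ATG16L1, which anchors that complex to the membrane, was at 38.3, 35.7 and 39.4 CPM with DMSO, 27.2, 29.4 and 29.6 with GDC, 34.7, 31.6 and 29.7 with GSK, and 24.8, 25.6 and 27.4 with COMBO. All treated libraries were below DMSO, with log2 fold changes of -0.40 (adjusted p = 1.30e-04), -0.25 (adjusted p = 0.00328) and -0.55 (adjusted p = 2.60e-07). The GSK value was -0.094 (adjusted p = 0.225) with library totals alone. ATG7, the activating enzyme of the system, was the member that rose, by 0.30 in GSK and 0.27 in COMBO.

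The ATG8 family, whose proteins are the substrates of that conjugation, had 4 of 5 members that rose in GDC and 5 of 5 in GSK and COMBO. GABARAPL1 (chromosome 12, 10212458 to 10223128, hg38, plus strand) was at 22.8, 23.6 and 23.0 CPM with DMSO, 31.5, 32.1 and 29.6 with GDC, 48.8, 57.9 and 54.1 with GSK, and 75.9, 79.2 and 74.4 with COMBO. The arms did not overlap, and COMBO was highest. It rose by 0.42 ± 0.068 for GDC (adjusted p = 6.62e-05), 1.22 ± 0.066 for GSK (adjusted p = 1.71e-12) and 1.73 ± 0.062 for COMBO (adjusted p = 1.04e-15), and was 0.51 ± 0.059 higher in COMBO than in GSK (adjusted p = 8.07e-07). MAP1LC3B, the LC3 protein most used as an autophagosome marker, was at 28.8, 33.8 and 31.2 CPM with DMSO, 42.7, 44.6 and 42.7 with GDC, 66.6, 72.3 and 67.6 with GSK, and 76.0, 80.4 and 71.7 with COMBO. It rose by 0.46, 1.13 and 1.27. COMBO libraries overlapped those of GSK, and the difference between them was at the edge of the test, at 0.14 (adjusted p = 0.0529) and called in 15 of 19 alternatives, the replicate block (adjusted p = 0.0389) among them. GABARAP rose by 0.36, 0.75 and 0.91. GABARAPL2 rose by 0.19, 0.29 and 0.18, and its GDC call was lost in 10 of 19 alternatives.

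MAP1LC3A, another LC3 gene, was nearly unread in DMSO. Its counts were 0, 0 and 4 with DMSO, 7, 3 and 1 with GDC, 5, 14 and 11 with GSK, and 26, 27 and 16 with COMBO. The GSK and COMBO libraries were all above the DMSO libraries, and GDC overlapped DMSO. Per read of library depth, pooled counts stood at 4.58 times DMSO in GDC (95% exact interval 1.36 to 19.7), 17.2 times in GSK (6.05 to 67.1) and 25.7 times in COMBO (9.59 to 96.9), intervals that cover counting error only. It rose for GSK (adjusted p = 3.94e-05) and COMBO (adjusted p = 6.81e-07) and did not pass the test for GDC (adjusted p = 0.0649), although it did there without DMSO C (adjusted p = 0.0335) or GDC C (adjusted p = 0.0289).

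Cargo receptors rose in GSK and COMBO, where all 3 passed the test. SQSTM1, also named p62, links ubiquitin-tagged cargo to LC3. Its level was 280, 314 and 300 CPM with DMSO, 307, 289 and 309 with GDC, 539, 551 and 539 with GSK, and 545, 568 and 581 with COMBO. The DMSO and GDC libraries overlapped, and so did those of GSK and COMBO, all of which were higher. The log2 fold changes were 0.015 ± 0.046 for GDC (adjusted p = 0.820), 0.86 ± 0.046 for GSK (adjusted p = 1.13e-12) and 0.92 ± 0.045 for COMBO (adjusted p = 1.56e-13). NBR1, a receptor of related build, rose in all arms. It was at 147, 139 and 140 CPM with DMSO, 209, 208 and 219 with GDC, 198, 214 and 211 with GSK, and 256, 280 and 274 with COMBO, with log2 fold changes of 0.58, 0.55 and 0.93. BNIP3L, a receptor for mitochondria, rose by 0.43, 0.56 and 1.03.

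To measure what GSK126, with its pretreatment of 6 days, added to GDC-0941, COMBO was compared with GDC. Of the 53 genes 33 rose and 5 fell, where 37.9% of all genes rose and 38.0% fell, and the members' median was 0.31 against 0.018. By class, 12 lysosomal genes rose and 1 fell, 15 autophagy genes rose and 3 fell, and 4 proton pump genes rose and 1 fell. GLA showed the largest fall, at -1.20 ± 0.091 (adjusted p = 2.68e-10), and NEU1 (1.06) and CTSD (1.03) rose the most among lysosomal genes. TFEB was 0.68 ± 0.13 higher (adjusted p = 6.95e-05) and MITF 0.56 ± 0.096 (adjusted p = 2.51e-05). The pump gene that fell was ATP6V1B2 (-0.16, adjusted p = 0.00120), which stood at 0.0097 (adjusted p = 0.833) with library totals alone.

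Whether the agents added up was tested as an interaction, the log2 fold change in COMBO minus those in GDC and in GSK, each against DMSO. A negative value means that COMBO lay below the sum of the 2 changes. The interaction was positive for 2 members and negative for 19, where 4.86% of all genes had a positive and 16.5% a negative call, and the members' median was -0.17 against -0.063. These calls depended on the libraries, and so did the calls over all genes. The negative count was 9, 11 and 8 without DMSO A, B and C, 10 without GDC A, B or C, 9 without GSK A, GSK B or COMBO A, and 18 or 19 without each of the others, and the positive count was 5 without DMSO B. In the 9 fits that left out a library and had 8 to 11 negative members, the median of all genes lay between -0.0083 and 0.0083. Over all genes, 690 positive and 2344 negative calls became 1624 and 1309 with no filter, where the median was 0.035 and 4 members were positive and 7 negative. With a mean of at least 1 CPM they were 1151 and 1677, at 4 and 12 members. The excess of negative calls over all genes thus turned when no filter was used, while negative calls outnumbered positive ones among the members in each of these fits.

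The interaction calls of 7 genes were kept under all 18 alternatives. Of these, TPP1 (-0.44 ± 0.072, adjusted p = 1.61e-04), CTSA (-0.45 ± 0.084, adjusted p = 6.03e-04), NEU1 (-0.46 ± 0.086, adjusted p = 6.26e-04) and CTSD (-0.30 ± 0.066, adjusted p = 0.00245) are hydrolases that rose with each agent alone and rose by less than the sum with both. BECN1 (-0.42, adjusted p = 3.31e-04) did likewise. RB1CC1 (0.35 ± 0.10, adjusted p = 0.0208) and ATG14 (0.35 ± 0.10, adjusted p = 0.0213) rose by more than the sum. Exons of ATG14 overlap those of FBXO34, and exons of BECN1 those of CNTD1 and PSME3. GLA fell by more than the sum, with an interaction of -0.52 ± 0.13 (adjusted p = 0.00529), which was -0.37 (adjusted p = 0.0563) without GDC B. Among pump genes, ATP6V1B2 had -0.31 ± 0.057 (adjusted p = 6.50e-04), which was -0.21 (adjusted p = 0.0525) with no filter. ATP6AP1 had -0.32 ± 0.073 (adjusted p = 0.00298), which was -0.22 (adjusted p = 0.0502) without COMBO A.

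**Figure D4:**
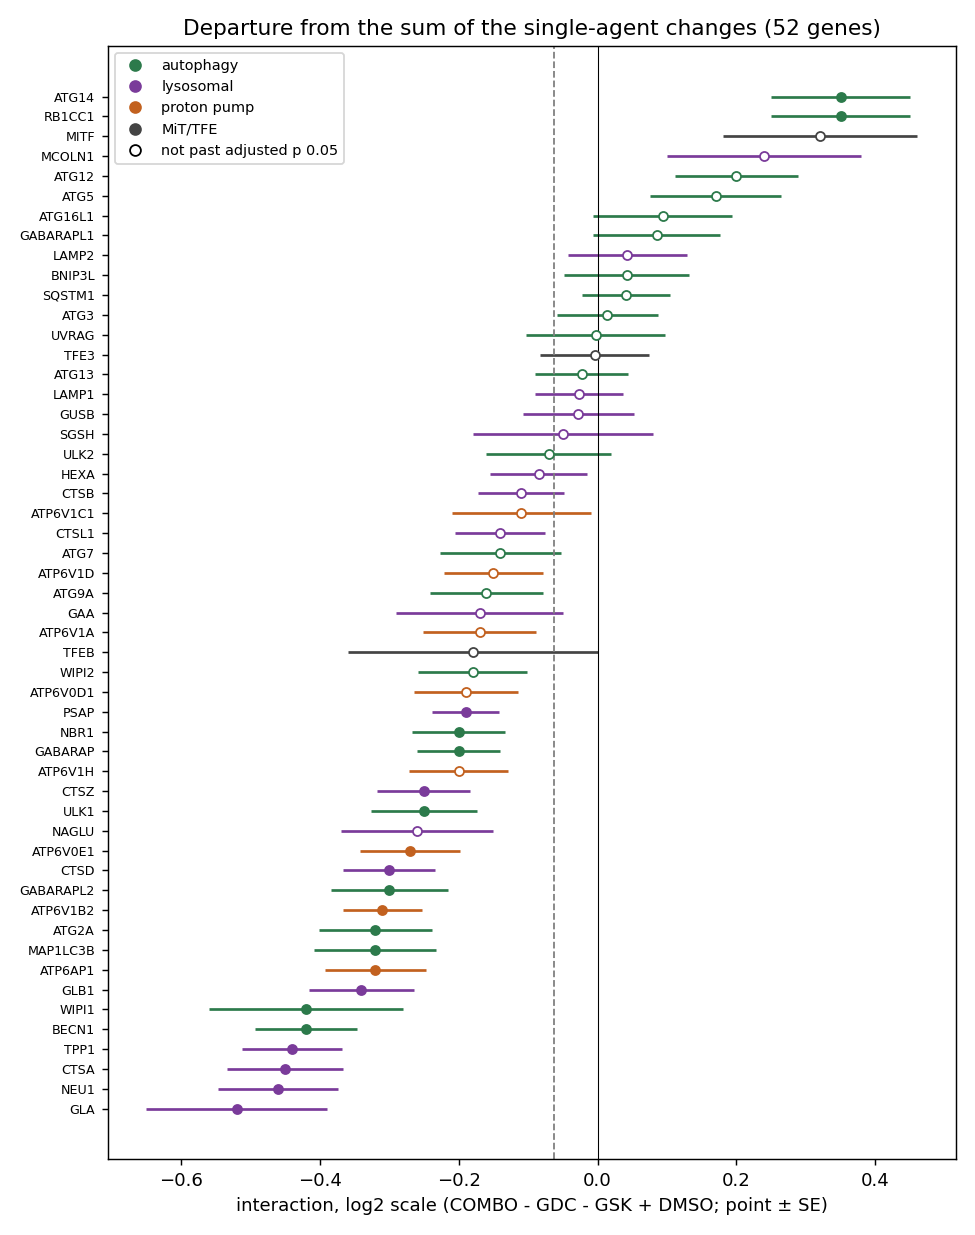
Each row is 1 of 52 members (MAP1LC3A, at -1.51 with an adjusted p of 0.270, is left out), and the horizontal axis is its interaction on the log2 scale (point) with its standard error (bar), coloured by class. Filled points passed an adjusted p of 0.05 (edgeR), the solid line marks 0 and the dashed line the median of all genes, -0.063. ATG14 and RB1CC1 are the filled points above 0, and GLA, NEU1, CTSA and TPP1 have the lowest values.

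Other genes of the route were examined from 4 lists of 140 genes, of which 131 were tested. In GDC 53 rose and 23 fell (40.5% and 17.6%, against 20.0% and 20.0% of all genes), in GSK 83 and 28 (63.4% and 21.4%, against 40.0% and 35.7%), and in COMBO 84 and 36 (64.1% and 27.5%, against 43.3% and 39.2%). Among 55 further lysosomal genes, 28 rose and 9 fell with GDC, 41 and 10 with GSK, and 43 and 10 with COMBO. Among 42 further autophagy genes the counts were 17 and 8, 22 and 10, and 25 and 13. Of 13 further pump genes 2 rose and 3 fell in GDC, 6 rose and 1 fell in GSK, and 4 rose and 6 fell in COMBO, where their median was -0.17. The 21 genes of mTORC1 and MiT/TFE control rose in 6, 14 and 12 cases and fell in 3, 7 and 7. Some of these shares lay near those of all genes, such as the 28.6% of control genes that rose and 14.3% that fell in GDC, the 33.3% that fell in GSK, and the 30.8% of further pump genes that rose and 46.2% that fell in COMBO.

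The outer values of those lists included large changes. OPTN, a receptor for ubiquitin-tagged cargo, was at 4.32, 5.75 and 5.22 CPM with DMSO, 8.04, 8.99 and 11.3 with GDC, 48.6, 54.1 and 50.5 with GSK, and 65.5, 71.2 and 69.9 with COMBO, with rises of 0.87, 3.29 and 3.72 on the log2 scale. CTSO, a cysteine protease, rose by 1.19, 2.36 and 2.90. CTSC, the dipeptidyl peptidase that activates serine proteases of immune cells, fell, with log2 fold changes of -0.28, -1.26 and -1.90. RRAGD, a GTPase that presents mTORC1 at the lysosome, was at 12.4, 11.3 and 11.3 CPM with DMSO, 16.3, 18.4 and 18.9 with GDC, 40.2, 42.7 and 38.1 with GSK, and 54.3, 55.4 and 51.7 with COMBO, rises of 0.64, 1.81 and 2.22. XPO1, which exports TFEB and many other proteins from the nucleus, fell, with -0.38, -1.03 and -1.14. ATG4D, a protease of ATG8 proteins, had -0.54, -0.65 and -1.10. In the pump, ATP6V0A1 rose by 0.34, 0.46 and 0.61, and ATP6V0B fell in GDC (-0.31) and COMBO (-0.52) but not in GSK (-0.0072, adjusted p = 0.910).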

How the data were processed

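The 12 libraries were polyA RNA-seq of C4.2B cells, 3 each of DMSO, GDC, GSK and COMBO. The submitters' processing notes name STAR, HTSeq, DESeq2 and hg38; versions, annotation and strand setting are not given in the sources used here. The deposited count values are the authors' unnormalized whole reads per gene symbol, and summary lines that name no gene were left out. A deposited table of counts divided by size factors was not used here.

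Groups came from the sample titles. Counts were tested with edgeR 4.0.16 (R 4.3.3, limma 3.58.1) by quasi-likelihood in 1 fit of the 12 libraries, with 1 coefficient per arm, TMM scaling, filterByExpr (14189 of 23228 genes kept) and Benjamini-Hochberg adjustment over all genes kept. The procedure was tested on simulated data. Class means used log2 CPM with a prior count of 2. Sampling noise did not account for the spread between libraries of 1 arm (chi-square per degree of freedom 1.78 to 6.57).

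The members and lists were chosen with earlier results of these data known. Genes were named by rule: the MiT/TFE factors, MCOLN1, ULK1, MAP1LC3B, SQSTM1, LAMP1 and CTSD; in the lysosomal, proton pump and autophagy classes the 2 called members with the highest and the 2 with the lowest log2 fold change against DMSO in every arm; the 4 highest and 4 lowest called interactions; and from each list of other genes the highest and the lowest called in COMBO against DMSO, with a mean log2 CPM of at least 2. Genes mentioned beyond these (CTSB, CTSL1, CTSZ, GAA, PSAP, GLB1, GUSB, LAMP2, ATG9A, ATG7, ULK2, BECN1, GABARAP, GABARAPL2, BNIP3L, ATP6V0D1 and ATP6V1H) were chosen after their values were seen, to complete their roles. Alternatives were DESeq2 1.42.0 (test, or size factors within edgeR), scaling by totals only, 2 other filters (none, or mean CPM of 1 or more), the arms compared alone, a replicate block, a minimum absolute log2 fold change of 0.5 and leaving out each library. Exons of 15 members overlap another counted gene and 8 have named pseudogenes in GENCODE (hg38), so their counts are uncertain; these include WIPI1, SQSTM1 and MAP1LC3B. Some luminal markers of the planned list are not reported here.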

Additional observations from a re-analysis of the deposited data

Results flagged for a closer look

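For 21 members the interaction term of the edgeR fit passed the threshold, 2 positive and 19 negative, and for the other 32 members it did not. Over all genes 4.86% had a positive and 16.5% a negative call, with a median interaction of -0.063. Values are log2 interactions, negative where COMBO lay below the sum of the changes in GDC and GSK. Among lysosomal genes these were GLA (-0.52, adjusted p = 0.00529), NEU1 (-0.46, adjusted p = 6.26e-04), CTSA (-0.45, adjusted p = 6.03e-04), TPP1 (-0.44, adjusted p = 1.61e-04), GLB1 (-0.34, adjusted p = 0.00306), CTSD (-0.30, adjusted p = 0.00245), CTSZ (-0.25, adjusted p = 0.0114) and PSAP (-0.19, adjusted p = 0.00674).

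Among proton pump genes they were ATP6AP1 (-0.32, adjusted p = 0.00298), ATP6V1B2 (-0.31, adjusted p = 6.50e-04) and ATP6V0E1 (-0.27, adjusted p = 0.0114). Among autophagy genes, negative values were found for BECN1 (-0.42, adjusted p = 3.31e-04), WIPI1 (-0.42, adjusted p = 0.0382), MAP1LC3B (-0.32, adjusted p = 0.0139), ATG2A (-0.32, adjusted p = 0.00852), GABARAPL2 (-0.30, adjusted p = 0.0138), ULK1 (-0.25, adjusted p = 0.0270), NBR1 (-0.20, adjusted p = 0.0353) and GABARAP (-0.20, adjusted p = 0.0207).

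Positive values were found for ATG14 (0.35, adjusted p = 0.0213) and RB1CC1 (0.35, adjusted p = 0.0208), a component of the class III PI3K complex and of the ULK1 complex, respectively. Of the 21, BECN1, CTSA, CTSD, TPP1, NEU1, RB1CC1 and ATG14 kept their calls in all 18 alternatives, and ULK1 and NBR1 each lost theirs in 15. Negative calls numbered 8 to 19 as single libraries were left out.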

How the results depend on the processing

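Of 286 recomputed counts and class gaps, 245 stayed within 1.5 times their value, or within 1 SD for the gaps. A minimum log2 change of 0.5 in size left 3 members higher and 0 lower in GDC, 22 and 1 in GSK, 24 higher in COMBO, and in the comparison of COMBO with GDC 18 and 1, 3 and 1 in COMBO against GSK, and 0 positive and 1 negative interaction. Members lower in GDC numbered 7 with DESeq2 size factors or a mean of at least 1 CPM and 8 without a filter, against 4. With library totals, 3 were lower in GSK (6 before) and 3 in COMBO against GDC (5 before), and ATP6V1B2 in that comparison turned from -0.16 to 0.0097. Interactions numbered 4 positive and 7 negative without a filter, and 4 and 12 with a mean of at least 1 CPM. The causes were not tested. Leaving out single libraries gave 4 to 7 members lower in GDC (7 without DMSO A, GSK A, GSK B or COMBO A), 8 to 15 lower in COMBO against GSK, and 2 to 5 positive and 8 to 19 negative interactions.

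The gap between lysosomal and autophagy means changed by -0.091, 0.036 and -0.093 in GDC, GSK and COMBO with a prior count of 0.25, and by 0.27, 0.19 and 0.44 with medians. Without single libraries it ranged from -0.044 to 0.0058, 0.10 to 0.15 and -0.023 to 0.028.

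Same-letter libraries of different arms deviated from their arm means with correlations of -0.084 to 0.19, so the letters A, B and C were not taken to pair them. With the letter as a replicate block, 26 members were higher and 4 lower in GDC, 41 and 6 in GSK, 39 and 6 in COMBO, and 2 interactions were positive and 18 negative. A fit of only the arms compared was not run for the interaction, which needs all 4. Depth limits MAP1LC3A most, with at most 27 counts in a library.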
